A study of Drosophila melanogaster with 12 samples.

Results

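The *Lcp*, *Ccp84A*, Tweedle and Osiris genes are 4 families of small secreted or membrane proteins of *Drosophila melanogaster*, and their transcripts were followed here in larval tracheae, adult tracheae and whole flies. Their members were taken by name: every gene whose symbol starts with Lcp and a number, with Ccp84A, with Twdl, or with Osi and a number. This gave 74 of the 17697 genes in the files, namely 17 *Lcp* genes, 7 *Ccp84A* genes, 26 Tweedle genes and 24 Osiris genes. Of these, 70 are annotated as protein coding. The pseudogenes *Lcp1Psi*, *Lcp65APsi* and *TwdlU* have no annotated exons and so no length-scaled level. All animals were of the *w1118* genotype. The larval tracheae were dissected by hand from larvae of both sexes in mid instar 3, before they wandered. The adult tracheae were dissected by hand from head, thorax and abdomen of females aged 5 to 7 days, and the whole flies were females of the same age. Each group had 4 libraries, each made from a pool of 3 animals, so that the stage, sex and dissection of the animals cannot be told apart from the tissue.

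The insect trachea is an epithelial tube whose lumen is lined by a chitinous cuticle, which is laid down anew and shed at each larval moult. *Lcp* (larval cuticle protein) and *Ccp84A* genes encode short cuticle proteins with a chitin-binding domain and lie in tandem groups on the chromosome. Tweedle genes encode a separate family of secreted cuticle proteins, known from the short, thick larvae and pupae of a *TwdlD* mutant. Osiris genes encode an insect family of membrane-associated proteins, most of them in a long cluster in a region of the genome known for its unusual sensitivity to gene dosage, and they are known to be switched on briefly in cuticle-forming cells of embryos and pupae.

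The libraries held 5017919 to 14962142 gene reads, of which 87.4 to 92.0% mapped uniquely. A count of 3 reads in a library stood at 0.201 to 0.598 reads scaled to library size (CPM), and lower levels were not resolved. No molecular identifiers were used, so intervals and limits on counts below cover counting error only. The p-values measure the spread between these libraries, which may in part be technical. The summed level of 13 tracheal epithelium markers was 872 to 2276 RPKM (exon reads per kilobase of exon, scaled to the gene reads of the library) in the larval, 68.4 to 150 in the adult tracheal and 21.9 to 37.7 in the whole-fly libraries. An internal name in each deposited file holds letters that could be read as another group. The sample titles were used, and these marker levels follow the titles. The adult tracheae also carried ovary markers at a summed 84.7 to 13128 RPKM and midgut markers at 1259 to 7743 RPKM. In whole flies these were at 11467 to 29467 and 35215 to 38285 RPKM. Oenocyte markers (1855 to 3185 RPKM) and haemocyte markers (92.5 to 150) lay above whole flies (1100 to 1539 and 13.3 to 16.8). So did neuron markers (6.22 to 51.5 against 1.52 to 2.98) and fat body markers (145 to 194 against 34.5 to 46.4). Muscle markers overlapped (412 to 1177 against 328 to 620). In such bulk samples fewer cells of a type and less RNA per cell cannot be told apart.

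The 4 families differed in how many of their genes were read at all. Reads were found for 23 of the 24 *Lcp* and *Ccp84A* genes (95.8%), and for 35 of the 50 Tweedle and Osiris genes (70%). In larval tracheae, 15 of 17 *Lcp* genes had at least 1 read in a library, against 8 in adult tracheae and 7 in whole flies. All 7 *Ccp84A* genes had reads in larval tracheae and only 2 in each of the other groups. For Tweedle genes the numbers were 14, 8 and 9 of 26, and for Osiris genes 12, 11 and 13 of 24. On these gene reads, which include intron reads, the share of Osiris genes ran from 45.8 to 54.2% over the 3 groups. Over all genes of the files the larval, adult tracheal and whole-fly shares of gene reads were 63.2, 66.8 and 61.9%. On exon reads alone, 11, 8 and 13 of the 24 Osiris genes were read in these groups (45.8, 33.3 and 54.2%).

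A stricter count separated the families further. With at least 10 reads in a library, 14 *Lcp*, 7 *Ccp84A*, 8 Tweedle and 5 Osiris genes were left in larval tracheae. The same count left 6, 0, 4 and 3 in adult tracheae, and 0, 0, 5 and 9 in whole flies. The 16 genes without a read in any of the 12 libraries were the pseudogene *Lcp65APsi*, 8 Tweedle genes (*TwdlD*, *TwdlJ*, *TwdlK*, *TwdlL*, *TwdlM*, *TwdlN*, *TwdlR* and *TwdlV*) and 7 Osiris genes (*Osi3*, *Osi5*, *Osi11*, *Osi12*, *Osi13*, *Osi21* and *Osi22*). A further 8 Tweedle genes were read in a lone library out of 12, and 4 of those had 10 or more reads there: *TwdlB* with 22 in larval trachea replicate 2, *TwdlO* with 11 in replicate 3, *TwdlH* with 29 in replicate 4, and *TwdlQ* with 12 in whole fly replicate 4.

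The summed RPKM of each family put *Lcp*, *Ccp84A* and Tweedle genes highest in larval tracheae and Osiris genes highest in whole flies. The *Lcp* genes summed to 3849 ± 4620 RPKM (SD, n = 4) in larval tracheae, with 1143, 10551, 471 and 3232 in replicates 1 to 4. The adult tracheal sum was 10 ± 9.18 (SD, n = 4), and that of whole flies 2.24 ± 1.36 (SD, n = 4). The larval sum varied 22.4-fold between libraries, yet its lowest library lay above every adult and whole-fly library. The *Ccp84A* genes summed to 612 ± 440 RPKM (SD, n = 4) in larval tracheae, and to at most 0.314 in an adult tracheal and 0.504 in a whole-fly library. The Tweedle genes summed to 1453 ± 255 RPKM (SD, n = 4) in larval tracheae, against 6.94 ± 3.18 (SD, n = 4) in those of adults and 9.26 ± 9.25 (SD, n = 4) in whole flies. Their larval sum varied 1.41-fold, and 91.0 to 99.5% of it came from *Twdlbeta*. The Osiris genes summed to 43.0 ± 29.2 RPKM (SD, n = 4) in whole flies, where the libraries ran from 11.4 to 78.0, against 7.71 ± 4.52 (SD, n = 4) in larval and 3.17 ± 4.57 (SD, n = 4) in adult tracheae. The larval and whole-fly ranges of the Osiris sum overlapped, since larval trachea replicate 4 stood at 12.7.

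**Figure D1:**
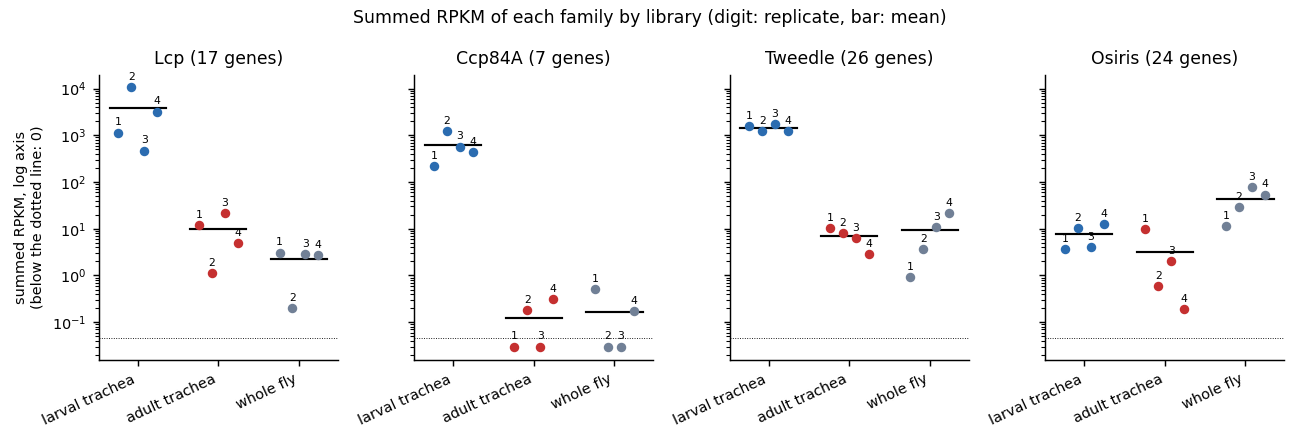
Summed RPKM of the 4 families in each of the 12 libraries, on a log axis, with each digit marking a replicate and each bar the mean of a group of 4. The *Lcp* sum spans 471 to 10551 RPKM in larval tracheae, while the Tweedle sum stays between 1239 and 1746 RPKM, and the Osiris sum is highest in whole flies (11.4 to 78.0).

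Larval and adult tracheae were compared to ask which of these genes differ between the tube of the larva and that of the adult. The edgeR quasi-likelihood test was used, with Benjamini-Hochberg adjustment over all 10239 genes tested, of which 25 were members. It called 19 of these 25 higher in larval tracheae, where 9.03% of all genes tested were called higher. These were 9 *Lcp*, all 7 *Ccp84A*, 2 Tweedle and 1 Osiris gene. None was called lower (18.2% of all genes tested were), against 1 by DESeq2 (*Osi6*) and 2 at an unadjusted p under 0.05 (*Osi6* and *TwdlG*). The 2 groups did not overlap in CPM for 15 members, each of them higher in larval tracheae (13.7% of all genes tested), and for none that was lower (18.6%). Of the 74 members, 49 did not reach 10 reads in 2 of the 8 libraries and were not tested, and 18 of those had no reads in the 8. Without adult trachea replicates 3 and 4 together the number called higher was 11.

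In larval tracheae against whole flies, 32 of the 74 members were tested, namely 11 *Lcp*, all 7 *Ccp84A*, 5 Tweedle and 9 Osiris genes. Of these, 21 were called higher in larval tracheae (edgeR, 22.9% of the 9944 genes tested were called higher) and 5 lower (27.5%). The higher ones were 11 *Lcp*, all 7 *Ccp84A*, 2 Tweedle and 1 Osiris gene, and the lower ones were *TwdlF*, *TwdlG*, *Osi6*, *Osi18* and *Osi20*. The groups did not overlap for 16 members higher in larval tracheae (21.6% of all genes tested) and for 2 lower (28%), *Osi6* and *Osi20*. The 5 lower calls became 3 without larval library 2, 3 without larval library 4 and 2 without whole-fly library 4.

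Between adult tracheae and whole flies only 15 of the 74 members had enough reads to be tested. These were 3 *Lcp*, 0 *Ccp84A*, 3 Tweedle and 9 Osiris genes. *Twdlbeta* alone was called higher in adult tracheae (16.7% of the 10234 genes tested by edgeR were) and 4 Osiris genes were called lower (8.05%), *Osi14*, *Osi18*, *Osi19* and *Osi20*. The groups did not overlap for 2 members higher in adult tracheae (16.7%) and for 2 lower (14.2%). The number of members called lower was 1 when adult library 2 was left out, and 2, 1 and 1 when whole-fly libraries 2, 3 and 4 were left out in turn.

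**Figure D2:**
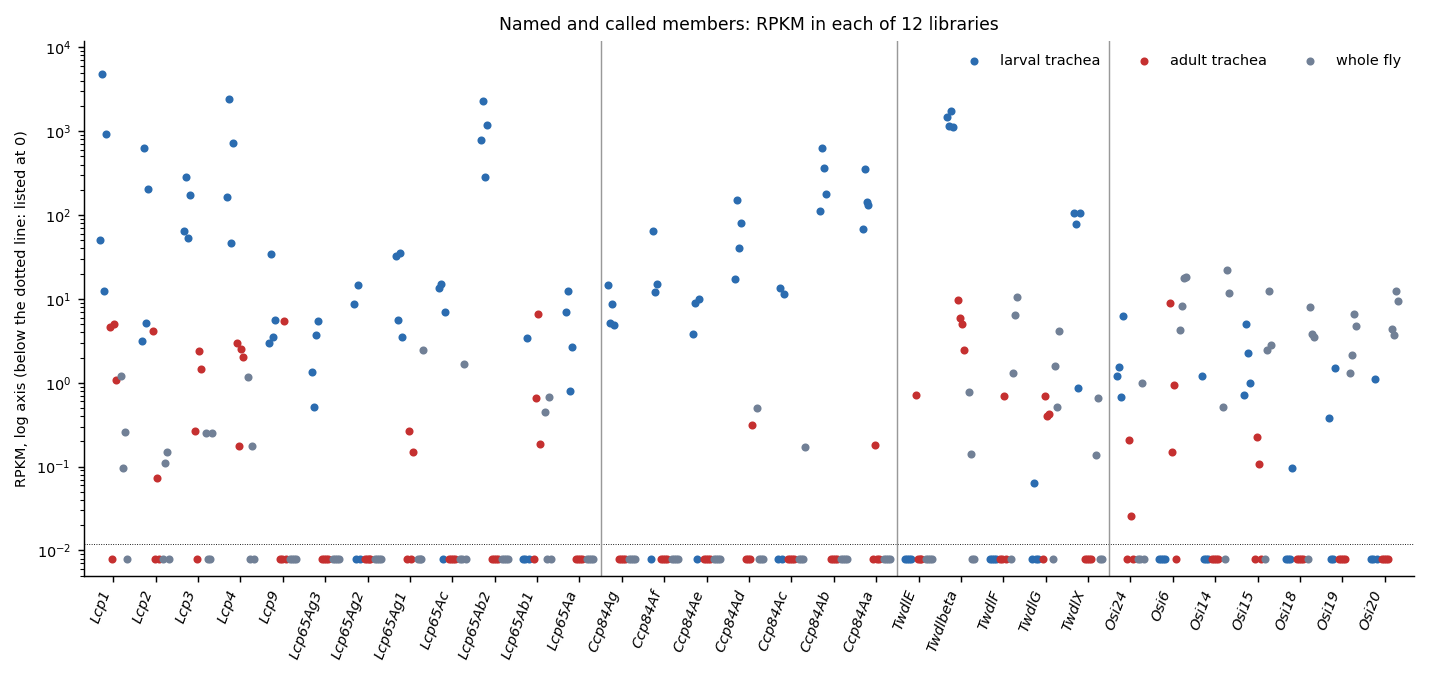
RPKM of the named and called members in each of the 12 libraries on a log axis, with libraries at 0 on the lowest line. *Lcp65Ab2*, *Twdlbeta*, *Lcp1* and *Lcp4* reach over 1000 RPKM in larval tracheae, and the Osiris genes stay below 22 RPKM in all 12 libraries.

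*Lcp1* to *Lcp4*, the major cuticle proteins of the larval body wall, lie together on chromosome 2R from 8430115 to 8438495 (BDGP6), a stretch of 8.38 kb. *Lcp1* (FBgn0002531, 8430115 to 8431243) was at 50.9, 4868, 12.5 and 927 RPKM in larval tracheae 1 to 4, at 4.57, 0, 4.96 and 1.08 in those of adults, and at 1.22, 0.095, 0.261 and 0 in whole flies. *Lcp4* (FBgn0002535, 8437647 to 8438495) was at 162, 2399, 46.3 and 716 RPKM in the larval libraries, and at most at 2.95 in any other. For both genes every larval library lay above every library of the other groups, although the larval libraries themselves differed 388-fold for *Lcp1* and 51.8-fold for *Lcp4*.

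*Lcp2* stood at 3.14, 623, 5.16 and 206 RPKM in larval tracheae and at 4.20, 0, 0.0721 and 0 in adult tracheae, so that larval trachea replicate 1 fell below adult trachea replicate 1. *Lcp3* stood at 65.4, 287, 53.5 and 174 RPKM in larval and 0.267, 0, 2.38 and 1.48 in adult tracheae, and was the steadiest of the 4 genes, with a 5.36-fold range among larval libraries. In all 4 genes larval trachea replicate 2 was highest and replicate 4 second.

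All of *Lcp1* to *Lcp4* were called in larval against adult tracheae. For *Lcp1* the log2 fold change was 8.86 (standard error 2.11, edgeR, adjusted p = 0.0114), for *Lcp3* 6.79 (standard error 1.07, adjusted p = 0.00124) and for *Lcp4* 8.63 (standard error 1.45, adjusted p = 0.00180). For *Lcp2* it was 7.90 (standard error 2.15, edgeR, adjusted p = 0.0211), with an adjusted p of 0.0512 without adult library 2. Without adult libraries 3 and 4 together the adjusted p (edgeR) was 0.0772 for *Lcp1* and 0.125 for *Lcp2*. With the replicate number as a block it was 0.137 and 0.0758 (edgeR). *Lcp3* and *Lcp4* were called in every alternative. Against whole flies all 4 were called as well, with 45741 larval reads of *Lcp1* against 10 in whole flies (6791-fold in pooled CPM). The reads that remained in adult tracheae were few but above those of whole flies in number, at 119 against 10 for *Lcp1*, 41 against 2 for *Lcp3* and 64 against 6 for *Lcp4*. None of these was called between adult tracheae and whole flies (edgeR, adjusted p = 0.158, 0.175 and 0.199).

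*Lcp9*, the lone member of its family on another part of chromosome 2R (24779979 to 24780428), was read at 2.96, 33.9, 3.54 and 5.59 RPKM in larval tracheae. It was at 0, 0, 5.43 and 0 in adult tracheae and at 0 in whole flies. It was not called against adult tracheae (log2 fold change of 2.51, standard error 1.76, edgeR, adjusted p = 0.339). Without adult library 3 it was (log2 fold change of 8.24, standard error 1.95, edgeR, adjusted p = 0.0199), as it was by limma on log2 RPKM with all libraries (adjusted p = 0.0325 to 0.0449 over 3 settings). It was called against whole flies (at least 63.8-fold higher against a floor of 3 reads over the group, edgeR, adjusted p = 0.00582), but without larval library 2 or 4 it did not reach 10 reads in 2 libraries. Adult trachea replicate 3, the only adult library with reads of *Lcp9*, also had the highest adult RPKM of *Lcp1*, *Lcp3* and *Lcp65Ab1*, while *Lcp2* and *Lcp4* were highest in adult trachea replicate 1. In the same library 7 salivary gland markers, 1 of them without reads, summed to 86.0 RPKM, against 0 to 3.28 in the other adult libraries. The part of other tissue in these reads was not tested.

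The *Lcp65* genes lie on chromosome 3L from 6130386 to 6151803, 11 members in 21.4 kb, interleaved with 5 cuticle protein genes of the *Cpr* type. *Lcp65Ab2* (FBgn0020643, 6146674 to 6147089) led them, with 793, 2297, 285 and 1183 RPKM in larval tracheae and no reads in any adult tracheal or whole-fly library. Its 13738 larval reads correspond to at least 7288-fold higher levels than in adult tracheae (edgeR, adjusted p = 0.000203) and at least 6799-fold higher levels than in whole flies (edgeR, adjusted p = 3.01e-05). These values hold for the gene as counted, because *Lcp65Ab2* and its near-identical neighbour *Lcp65Ab1* (6149548 to 6149960) could hardly be told apart by the reads.

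Of the 13745 larval reads assigned to this pair, 309 (2.25%) mapped uniquely. The files place nearly all larval reads on *Lcp65Ab2*, with 0, 0, 7 and 0 reads on *Lcp65Ab1*, and all adult reads on *Lcp65Ab1*, with 0, 2, 41 and 1 reads. None of the 44 adult reads mapped uniquely, so the opposite placing of larval and adult reads is not a measured difference between the 2 genes. Summed over the pair, the larval level was 497-fold that of adult tracheae (95% counting interval 370 to 685), with a log2 fold change of 8.74 (standard error 1.42, edgeR, adjusted p = 0.00150). Against whole flies the summed pair was 6802-fold higher (2327 to 32988).

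*Lcp65Ag1*, *Lcp65Ag2* and *Lcp65Ag3* are a second near-identical set, at a lower level. *Lcp65Ag1* was at 32.1, 5.66, 35.1 and 3.55 RPKM in larval tracheae, *Lcp65Ag2* at 8.58, 0, 14.7 and 0, and *Lcp65Ag3* at 1.34, 0.513, 3.67 and 5.41. *Lcp65Ag1* and *Lcp65Ag2* were thus highest in larval trachea replicates 3 and 1, the libraries in which *Lcp1* to *Lcp4* were lowest. Of the 354 larval reads of the set, 69.8% mapped uniquely, and the summed set was 282-fold higher than in adult tracheae (77.4 to 2335, on 2 adult reads) and 75.1-fold higher than in whole flies (36.1 to 188, on 7 reads). *Lcp65Ag1* was called in both comparisons (edgeR, adjusted p = 0.00213 against adult tracheae and 0.0115 against whole flies).

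Among the other *Lcp65* genes, *Lcp65Ac* was at 13.6, 14.9, 0 and 7.03 RPKM in larval tracheae and *Lcp65Aa* at 6.99, 12.5, 0.797 and 2.69. Both were called against adult tracheae, where neither had a read (edgeR, adjusted p = 0.0233 for *Lcp65Ac* and 0.0183 for *Lcp65Aa*). Without larval library 2 the adjusted p was 0.0540 for *Lcp65Ac* and 0.0504 for *Lcp65Aa*, and without larval library 1 it was 0.0566 for *Lcp65Ac*. *Lcp65Ag3* was called against adult tracheae at an adjusted p of 0.0321 (edgeR), which was 0.0569 without larval library 1, 0.0572 without adult library 2 and 0.0507 without adult library 4, and it was not tested without larval library 3 or 4. Against whole flies it was called too, but not tested without larval library 3 or 4. *Lcp65Ag2* was called against whole flies (edgeR, adjusted p = 0.0378), but its value was 0.0598, 0.0665, 0.0613 and 0.0580 when whole-fly libraries 1 to 4 were left out in turn, and it was not tested without larval library 1 or 3. For *Lcp65Ac* against whole flies (edgeR, adjusted p = 0.0419) the value was 0.0874, 0.0834 and 0.0584 without larval libraries 1, 2 and 4, and 0.0748, 0.0787 and 0.0745 without whole-fly libraries 1, 2 and 4. *Lcp65Af*, *Lcp65Ae* and *Lcp65Ad* had 17, 30 and 28 reads, all in larval tracheae, and were not tested.

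The 7 *Ccp84A* genes lie on chromosome 3R from 6686728 to 6704903. They had 13319 reads in larval tracheae against 4 in adult tracheae and 3 in whole flies. No *Ccp84A* gene overlapped between larval and adult tracheae except where a larval library itself was at 0. *Ccp84Ab* (FBgn0004782, 6701968 to 6702877) was the most abundant, with 111, 631, 367 and 177 RPKM in larval tracheae and no read elsewhere. *Ccp84Aa* (FBgn0004783, 6704084 to 6704903) was at 68.7, 358, 142 and 131 RPKM, with 1 read in adult trachea replicate 2. *Ccp84Ad* (FBgn0004780, 6692732 to 6693527) was at 17.2, 152, 40.4 and 79.9 RPKM, with 3 reads in adult trachea replicate 4 and 2 in whole fly replicate 1.

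The larval levels of these 3 genes lay far above the handful of other reads. *Ccp84Ab* was at least 3797-fold higher than in adult tracheae (edgeR, adjusted p = 0.000195) and at least 3542-fold higher than in whole flies (edgeR, adjusted p = 2.68e-05). For *Ccp84Ad* the log2 fold change against adult tracheae was 9.35 (standard error 1.06, edgeR, adjusted p = 0.000212). *Ccp84Aa* and *Ccp84Ab* are similar in sequence, with 63.2% of their 10848 larval reads unique, and as a sum they were at least 5369-fold higher than in whole flies.

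The other 4 *Ccp84A* genes were read at lower levels, and 3 of them not in every larval library. *Ccp84Ag* was at 14.6, 5.21, 8.72 and 4.91 RPKM, *Ccp84Af* at 0, 65.3, 12 and 15, *Ccp84Ae* at 3.86, 8.87, 0 and 9.90, and *Ccp84Ac* at 0, 13.4, 0 and 11.4. *Ccp84Ag* was at least 129-fold higher than in adult tracheae (edgeR, adjusted p = 0.00168). *Ccp84Ac* was called at an adjusted p of 0.0480 (edgeR), which became 0.0738, 0.0802, 0.0721 and 0.0829 when adult trachea replicates 1, 2, 3 and 4 were left out in turn. Without larval library 2 or 4, *Ccp84Ac* was not tested. For *Ccp84Ae* (edgeR, adjusted p = 0.0245) the value was 0.0550 without larval library 2 and 0.0519 without larval library 4. Against whole flies all 7 were called, *Ccp84Ac* not without these 2 larval libraries.

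The Tweedle family was carried in larval tracheae by *Twdlbeta* and *TwdlX*. *Twdlbeta* (FBgn0033658, chromosome 2R, 11862537 to 11863252, 1 exon) was at 1478, 1156, 1737 and 1129 RPKM in larval tracheae, at 9.78, 5.96, 5.04 and 2.47 in those of adults, and at 0.776, 0.141, 0 and 0 in whole flies. The 3 groups followed each other without overlap, and the larval libraries differed by 1.54-fold. Of the members with a mean of at least 20 RPKM in larval tracheae it was the most even.

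The log2 fold change of *Twdlbeta* in larval against adult tracheae was 7.88 (standard error 0.59, edgeR, adjusted p = 3.82e-05), a pooled ratio of 288 (95% counting interval 244 to 342). Against whole flies it was 13.10 in larval tracheae (standard error 0.62, edgeR, adjusted p = 1.95e-07). In adult tracheae it was 5.07 above whole flies (standard error 1.46, edgeR, adjusted p = 0.0287), a ratio of 33.6 (12.8 to 125) that rests on 144 reads against 4. Its adjusted p was 0.0701, 0.0590 and 0.0526 when adult libraries 1, 2 and 3 were left out in turn, and 0.0741, 0.0647 and 0.0557 when whole-fly libraries 2, 3 and 4 were, with a log2 fold change between 4.61 and 5.11.

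*TwdlX* (FBgn0052571, chromosome X, 16731091 to 16732630) was at 107, 79.0, 0.875 and 105 RPKM in larval tracheae and had no read in adult tracheae. In whole flies it had 1, 9, 0 and 0 reads. Larval library 3, with 6 reads against 775 to 1172 in the others, stood apart, and the larval levels spanned 122-fold. *TwdlX* was at least 1566-fold higher in larval than in adult tracheae (edgeR, adjusted p = 0.00352, and 0.000158 without larval library 3).

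The reads of *TwdlX* were largely shared. Only 189 of its 2953 larval reads mapped uniquely, 76, 39, 0 and 74 by library, and 82, 39, 0 and 97 spanned an exon junction. On uniquely mapped reads the adjusted p against adult tracheae was 0.0172. *TwdlX*, *TwdlY*, *TwdlZ* and *Twdlalpha* all lie inside the gene *goe* on the opposite strand, and the library protocol is not stated to mark strand, so reads of *goe* and of these genes cannot be told apart by strand. *goe* itself had 296, 489, 175 and 347 reads in the larval libraries. Scaled to library size it stood at 8.86, 15.7, 8.17 and 8.87 RPKM, so library 3 was close to libraries 1 and 4. The 3 neighbours of *TwdlX* had 2 to 21 larval reads each, none of them unique.

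*TwdlF* and *TwdlG*, which lie together on chromosome 3R from 4243606 to 4255833 with *TwdlU* and *TwdlV*, had the opposite pattern. *TwdlF* had no larval read, stood at 0, 0, 0.704 and 0 RPKM in the adult tracheal libraries, and at 0, 1.31, 6.43 and 10.4 in whole flies. *TwdlG* stood at 0, 0.0643, 0 and 0 RPKM in larval tracheae, at 0, 0.699, 0.401 and 0.426 in those of adults, and at 0, 1.59, 0.514 and 4.16 in whole flies. Since whole fly replicate 1 had no read of either gene, the groups overlapped at 0.

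*TwdlF* was at least 32.1-fold higher in whole flies than in larval tracheae (edgeR, adjusted p = 0.0224, and 0.0521 without whole-fly library 4). *TwdlG* was 61.3-fold higher (10.7 to 2447, on 1 larval read), with an adjusted p of 0.0324 that lay between 0.0516 and 0.0732 when larval library 1, 2, 3 or 4 was left out, and it was not tested without whole-fly library 2 or 4. Between adult tracheae and whole flies neither was called (edgeR, log2 fold change of -3.64, adjusted p = 0.166 for *TwdlF* and -1.54, adjusted p = 0.472 for *TwdlG*). In larval against adult tracheae *TwdlF* was not tested, with 13 reads in 1 adult library. *TwdlG* was not called there by edgeR (log2 fold change of -4.03, adjusted p = 0.119).

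The rest of the family was near or below the limit of detection. The largest Tweedle cluster, 12 genes on chromosome 3R from 26619118 to 26641054 including *TwdlD*, gave 78 reads in the larval libraries from 5 genes and none in adult tracheae or whole flies. *TwdlE*, on chromosome 2L, had 5 reads in adult trachea replicate 1 (0.723 RPKM) and none elsewhere, none of them unique, and it partly overlaps *lectin-28C*, which had 4531 reads. *TwdlT*, inside the receptor gene *RYa-R* on the same strand, had 9 larval, 14 adult and 4 whole-fly reads, again none of them unique.

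The Osiris genes were as a family highest in whole flies, unlike the *Lcp* and *Ccp84A* genes. Of 16 Osiris genes with exon reads, 8 had their highest mean RPKM in whole flies, 5 in larval and 3 in adult tracheae. Among *Lcp* genes 14 of 15 and among *Ccp84A* genes 7 of 7 had theirs in larval tracheae. The tally includes genes near the floor. The 3 adult ones, *Osi2*, *Osi8* and *Osi10*, had 3, 8 and 7 reads in adult tracheae. *Osi1* and *Osi4* had 1 and 2 larval reads, and *Osi16* had 3 in whole flies. The *Lcp* gene highest in adult tracheae was *Lcp65Ab1*, with no unique read. All but 3 Osiris genes lie in a single stretch of 168 kb on chromosome 3R (6173549 to 6341424).

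*Osi6* (FBgn0027527, 6234708 to 6237181) was at 4.32, 8.17, 17.9 and 18.3 RPKM in whole flies, at 8.85, 0.149, 0.941 and 0 in the adult tracheal libraries, and had no larval read. Every whole-fly library lay above every larval one, while adult trachea replicate 1 lay within the whole-fly range. *Osi6* was at least 138-fold higher in whole flies than in larval tracheae (edgeR, log2 fold change of -10.03 with a standard error of 1.19, adjusted p = 0.000286). In larval against adult tracheae its adjusted p was 0.0643 (at least 23.5-fold higher in adult tracheae), and 0.0371 without adult library 4. Between adult tracheae and whole flies it was not called (log2 fold change of -1.71, standard error 1.31, edgeR, adjusted p = 0.342), but without adult library 1 the adjusted p was 0.0456 (edgeR, log2 fold change of -4.22).

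*Osi20* (FBgn0037430, 6340095 to 6341424) was at 4.40, 3.68, 12.3 and 9.46 RPKM in whole flies, at 0, 0, 1.10 and 0 in larval tracheae and without reads in adult tracheae. *Osi20* was at least 90.4-fold higher in whole flies than in adult tracheae (edgeR, log2 fold change of -9.07 with a standard error of 1.47, adjusted p = 0.00549). Against larval tracheae the ratio was 24.3 (11.6 to 61.2, edgeR, adjusted p = 0.0314). That call had an adjusted p between 0.0539 and 0.0891 when larval library 1, 2 or 4 or whole-fly library 3 or 4 was left out.

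*Osi14*, *Osi18* and *Osi19* were also higher in whole flies than in adult tracheae. *Osi14* had 3, 0, 171 and 69 reads in the whole-fly libraries, *Osi18* 0, 101, 35 and 24, and *Osi19* 8, 24, 54 and 29, against 0, 0 and 3 reads in all adult tracheae. The ratios were at least 86.8 for *Osi14* (edgeR, adjusted p = 0.0336), at least 57.2 for *Osi18* (adjusted p = 0.0317) and 41.1 for *Osi19* (13.7 to 202, adjusted p = 0.0402).

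Those 3 calls rested on few libraries. The adjusted p of *Osi14* (edgeR) was 0.0527, 0.0608 and 0.0526 without adult libraries 1, 2 and 3, and without whole-fly library 3 or 4 it did not reach 10 reads in 2 libraries. That of *Osi18* was 0.0595 without adult library 2, and 0.0790, 0.0636 and 0.0556 without whole-fly libraries 2, 3 and 4. That of *Osi19* was 0.0774, 0.0888 and 0.0551 without adult libraries 1, 2 and 4, and 0.0608, 0.0892 and 0.0652 without whole-fly libraries 2, 3 and 4. *Osi18* was also called lower in larval tracheae than in whole flies (edgeR, adjusted p = 0.0172), on 1 larval read.

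*Osi15* (FBgn0037424, 6301804 to 6303653) was the only Osiris gene called between larval and adult tracheae. It was at 0.709, 5.09, 2.26 and 0.994 RPKM in larval tracheae, at 0, 0.223, 0.108 and 0 in those of adults, and at 0, 2.46, 12.5 and 2.84 in whole flies. Larval and adult libraries did not overlap, but the larval ones lay inside the whole-fly range. The larval level was 29.8-fold that of adult tracheae (11.2 to 112, edgeR, adjusted p = 0.0411), on 75 against 4 reads. Its adjusted p was 0.119 and 0.0690 without larval libraries 2 and 3, and 0.0765, 0.0671 and 0.0611 without adult libraries 1, 2 and 4.

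The Osiris genes differed widely in how many of their exon reads crossed an exon junction. For *Osi19* it was 71 of 132 exon reads over the 12 libraries (53.8%), for *Osi17* 14 of 29 (48.3%), for *Osi14* 71 of 252 (28.2%) and for *Osi24* 37 of 219 (16.9%). *Osi6* had 57 junction reads of 725, and 52 of those were in whole fly replicate 2, while *Osi15* had 6 of 239. *Osi18* and *Osi20*, with 2 annotated exons each, had 161 and 260 exon reads and none across a junction, and neither did *Osi9*, with 3 exons and 125 reads. For comparison, 25.7% of the exon reads of *Lcp1* and 3.95% of those of *Ccp84Ab* spanned a junction.

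**Figure D3:**
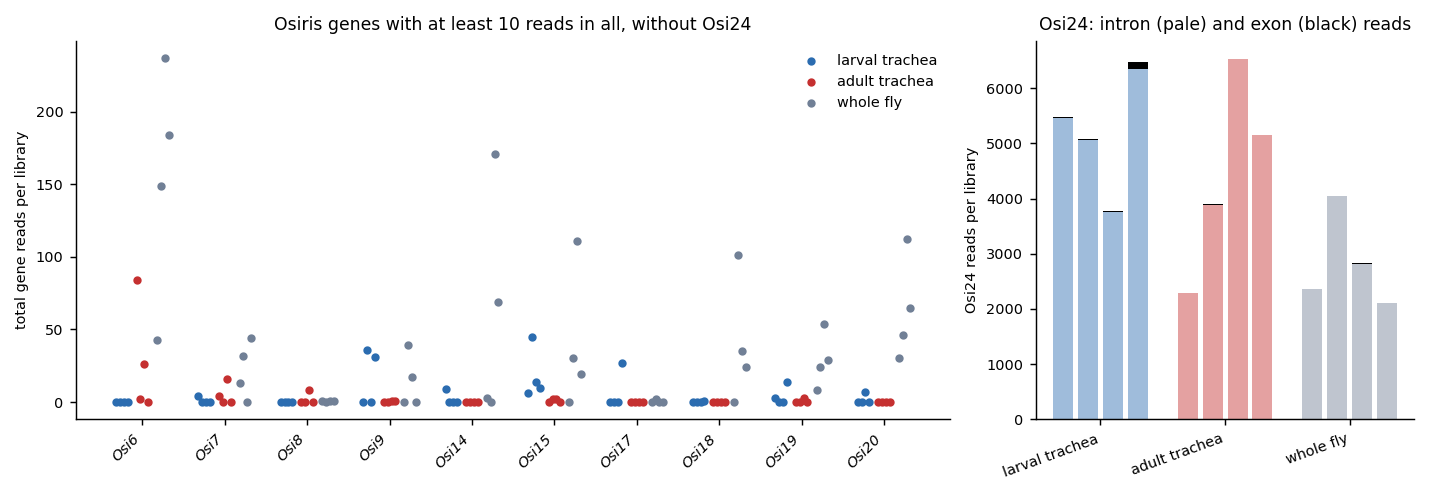
Left, gene reads per library of the 10 Osiris genes with at least 10 reads over the 12 libraries together, without *Osi24*. Right, reads of *Osi24* in introns (pale) and exons (black) in each of the 12 libraries. Most reads on the left are in whole flies, as for *Osi6* with 43, 149, 237 and 184, and on the right the introns hold 49803 of 50022 reads.

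*Osi24* (FBgn0037409, chromosome 3R, 6198811 to 6207678) had 50022 gene reads over the 12 libraries, more than all the other Osiris genes together, but 99.6% of them fell in its introns. Its exons held 195 reads in larval tracheae (22, 29, 9 and 135) against 5 in adult tracheae and 19 in whole flies, where all 19 were in replicate 3. On gene reads *Osi24* was called higher in larval tracheae than in whole flies (edgeR, log2 fold change of 1.48 with a standard error of 0.17, adjusted p = 3.95e-05). On exon reads alone edgeR did not make this call (log2 fold change of 3.84, adjusted p = 0.0668). Against adult tracheae it was not called on gene reads (edgeR, log2 fold change of 0.76 with a standard error of 0.28, adjusted p = 0.0723), although the 2 groups did not overlap, and was called on exon reads (edgeR, log2 fold change of 5.43, adjusted p = 0.0163). On gene reads the adjusted p was 0.0228 without adult library 3, 0.0434 without adult libraries 3 and 4, 0.00925 in the fit of all 3 groups and 0.0479 with library sizes that leave out the 20 highest genes. The annotation places a transposable element fragment of 152 bp of the BS family at 6206342 to 6206493 within intron 5, 635 bp long, of *Osi24* (6206336 to 6206970). The files do not give the position of reads within introns, so which intron they came from was not tested.

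Within the larval group, the *Lcp* and *Ccp84A* genes moved between libraries by more than most genes did. For each gene with a mean of at least 10 larval reads, log2 CPM was centred on its mean over the 4 larval libraries. Over 8210 such genes the median range between the highest and the lowest library was 1.10. Over 11 *Lcp* genes it was 3.38 (2.33 to 8.56) and over the 7 *Ccp84A* genes 3.05 (1.61 to 7.44). By size of this range, with a prior count of 2, *Lcp1* ranked 15th of the 8210 genes, *Lcp2* 34th, *Ccp84Af* 36th and *TwdlX* 63rd. With a prior count of 0.5 their ranks were 60, 176, 30 and 306.

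Many of these genes were highest in the same library. The median deviation of the *Lcp* genes was -0.47, 1.54, -1.64 and 0.52 in larval trachea replicates 1 to 4, and that of the *Ccp84A* genes -1.18, 1.47, -0.04 and 0.54. Replicate 2 was highest for 8 of the 11 *Lcp* and 5 of the 7 *Ccp84A* genes, and for 1983 of all 8210 genes. Replicates 2 and 4 were the highest pair for 6 *Lcp* and 4 *Ccp84A* genes, which was not counted over all 8210 genes. *Lcp1* to *Lcp4* had the steepest order, with median deviations of -1.57, 3.39, -2.86 and 1.51. With 4 libraries no correlation is given.

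Among the other genes this order was shared in part. *Twdlbeta* had a range of 0.64, smaller than the median of all genes, and *TwdlX* one of 6.75, with replicate 3 as its lowest library. Of the 3 Osiris genes with enough larval reads, *Osi24* had a range of 0.24, *Osi15* of 2.51 and *Osi9* of 4.58. *Osi9* and *Osi15* were highest in replicate 2, and *Osi9* was second highest in replicate 4, with no reads in the other 2 libraries. The 43 *Cpr* and other cuticle protein genes at this level had a median range of 2.51, with median deviations of -0.08, 0.56, -0.62 and 0.25, the same order of libraries as the *Lcp* genes at a smaller size.

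**Figure D4:**
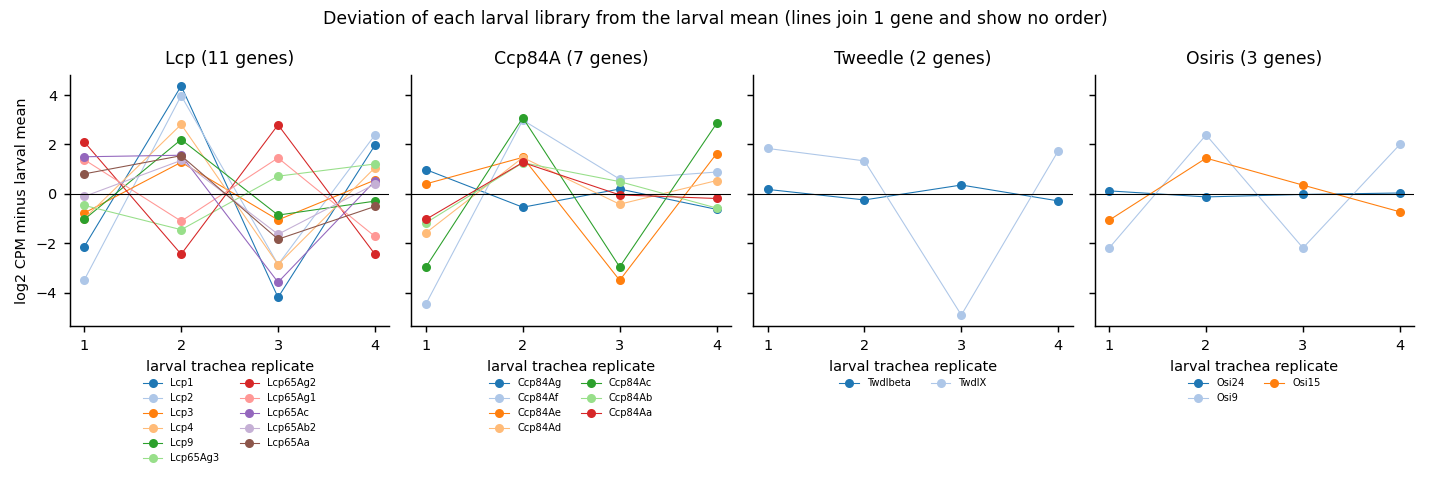
Deviation of log2 CPM from each gene's larval mean in the 4 larval trachea libraries, for the members with a mean of at least 10 larval reads, by family; lines join the values of 1 gene and imply no order between libraries. Most *Lcp* and *Ccp84A* genes are highest in replicate 2, where *Lcp1* lies 4.37 above its mean, while *Twdlbeta* stays within a range of 0.64.

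Markers of the dissected tube and of adhering tissue also differed between the larval libraries. The 13 tracheal markers summed to 1406, 2077, 872 and 2276 RPKM in replicates 1 to 4, with the 2 highest sums in the same replicates 2 and 4. They include the chitin and cuticle genes *Gasp*, *serp* and *verm*, so this sum is not independent of cuticle formation. The muscle markers summed to 2256, 721, 336 and 46.2 RPKM, the fat body markers to 29.9, 47.0, 261 and 61.4, and the imaginal disc markers to 36, 9.59, 38.8 and 10.5. Their part in the variation of the *Lcp* and *Ccp84A* genes was not tested. The 86 other cuticle protein genes summed to 30245, 21954, 27741 and 19589 RPKM, an order in which replicate 2 was not highest.

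In whole flies, the 9 Osiris genes with enough reads had median deviations of -1.18, -0.02, 0.85 and 0.56 in replicates 1 to 4. Replicate 3 was highest for 4 of them (*Osi14*, *Osi15*, *Osi19* and *Osi20*), replicate 4 for *Osi6* and *Osi7*, replicate 2 for *Osi9* and *Osi18*, and replicate 1 for *Osi24*. *Osi7* was lowest in replicate 3. The Tweedle genes *TwdlF* and *TwdlG*, without reads in replicate 1, were both highest in replicate 4.

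The clusters also held genes of other families. In the *Lcp65* cluster the interleaved gene *Cpr65Av* was at a mean of 302 RPKM in larval tracheae with 2 reads in all adult tracheae and none in whole flies. *Cpr65Au*, inside the same stretch, had the reverse order, with means of 80.7 RPKM in whole flies, 31.5 in adult and 9.13 in larval tracheae. In the Osiris stretch *CG15597*, a gene of none of the 4 families, had 241 reads in larval tracheae and none in the other groups, and its larval mean of 12.6 RPKM was above that of each Osiris gene. In the *Ccp84A* cluster the interleaved gene is *pncr002:3R*, with 24 larval reads.

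**Figure D5:**
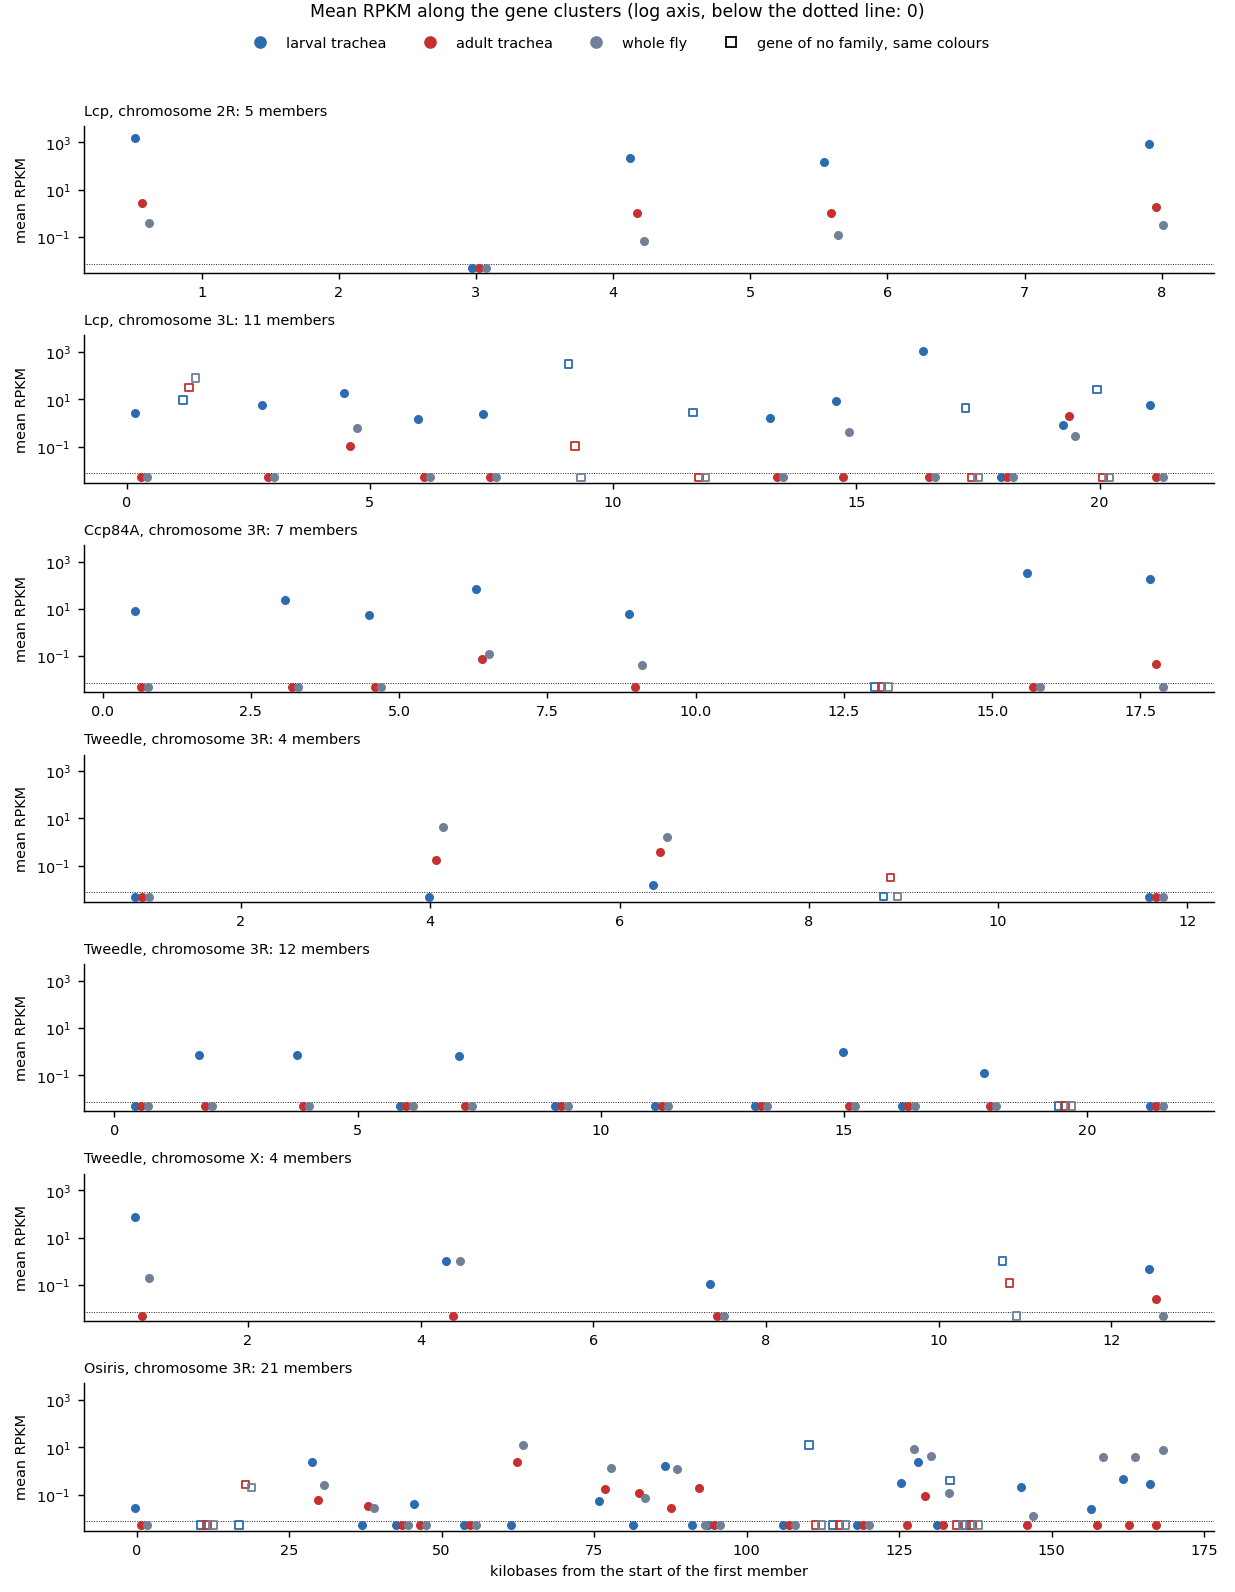
Mean RPKM in the 3 groups of the genes in the 7 clusters with at least 4 members, against distance from the first member in kb, on a log axis; squares are genes of none of the 4 families. The larval points of the *Lcp*, *Lcp65* and *Ccp84A* clusters lie highest, up to 1465 RPKM for *Lcp1*, while in the Osiris stretch most of the highest points are those of whole flies.

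Other genes of cuticle formation were counted beside the members. Of 86 other cuticle protein genes, 50 were tested in larval against adult tracheae, and 29 were called higher in larval tracheae and 5 lower, with a median log2 fold change of 6.22 (5.16 with genes at 0 set to the floor of 3 reads) against -0.16 over all genes tested. For the *Lcp* genes tested the median was 7.78 (6.90 at the floor) and for the *Ccp84A* genes 9.35 (7.65). These medians cover only genes that passed the filter on low counts. No *Ccp84A* gene reached 10 reads in an adult tracheal library, so all 7 passed it through the larval libraries. Their direction was thus fixed by the filter. Among the genes tested, 5 of 11 *Lcp*, 5 of 7 *Ccp84A* and 12 of 50 other cuticle protein genes were at 0 in 1 group. The sizes of the medians are therefore not compared between lists. Of 19 genes listed for chitin synthesis, assembly and turnover, 14 were higher and 1 was lower. The lower one was *Alas*, which encodes an enzyme of haem synthesis and not of chitin. Among the 14 were *kkv*, the chitin synthase, and the chitin deacetylases *serp* and *verm*. The 14 also include the chitinases *Cht2*, *Cht6*, *Cht7* and *Cht10*, and *Gasp*, which is counted among the 86 other cuticle protein genes too.

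For tanning and timing genes the counts were read against the 9.03% of all genes tested that were called higher in larval than adult tracheae and the 18.2% called lower. Of 12 genes of cuticle tanning and crosslinking, 11 were tested, with 2 higher in larval than adult tracheae (*Tg* and *laccase2*, which hardens cuticle) and 2 lower (*Dat* and *yellow-f*). Of 24 tested regulators of cuticle timing and tracheal fate, 6 were higher in larval tracheae (*EcR*, *abd-A*, *br*, *chinmo*, *grh* and *vvl*) and 3 lower (*Blimp-1*, *E23* and *Eip93F*). Of 10 tested genes of the apical matrix and epidermal shape, 4 were higher and 0 lower by edgeR.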

How the data were processed

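RNA from 12 libraries, 4 each of larval tracheae, adult tracheae and whole flies, was reverse transcribed by the authors from oligo(dT) primers with a cap finder, amplified by PCR, sequenced on a NextSeq 500 and mapped to BDGP6 in the CLC Genomics Workbench (version not given in the sources used). The deposited counts are unnormalized numbers of reads from that program, given by the authors for each gene as total and uniquely mapped reads over gene, exons and introns, and gene reads are the sum of exon and intron reads. For the deposited RPKM, the authors scaled total exon reads to exon length and to all gene reads of a library. The deposited TPM values, computed by the authors in the same program, were used only as an alternative scale for the family sums.

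Groups were taken from the sample titles. Total gene reads of genes that reached 10 reads in 2 or more of the 8 libraries of a comparison were tested with edgeR 4.0.16 in R 4.3.3 (TMM factors, quasi-likelihood F-test), each pair of groups in its own fit. P-values were adjusted by the Benjamini-Hochberg method over all genes tested, and calls required an adjusted p below 0.05 together with a fold change over 1.5. Ratios are of reads pooled over a group and divided by effective library size, with exact 95% counting intervals. Where a group had no read, the ratio was computed against 3 reads over the group. Deviations between libraries are of log2 CPM with a prior count of 2, for genes with a mean of at least 10 reads in the group. Members of a family at most 50 kb apart form a cluster. On simulated counts, changes of 16-fold were recovered for 77 of 100 genes in larval against adult tracheae. The numbers were 82 of 100 in larval tracheae against whole flies and 81 of 100 in adult tracheae against whole flies. Changes of 4-fold were recovered for 20, 42 and 21 of 100. The changed genes had a mean above 20 reads and the same starting level in both groups. These rates therefore do not cover members with fewer reads or with none in a group.

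The members and gene lists were chosen with earlier results of these data known. Values by library are given for members with a mean of at least 20 RPKM in a group, members called higher in adult tracheae, members that the paper names and members of near-identical sets, and further for called members, a choice made after their values were seen. Positions and symbols are those of the files, and 73 members have the same coordinates in the Ensembl annotation of BDGP6. *Osi10* was not matched by symbol. Sequences were not used here. List entries not found in the files under the name used were Cpap3, Vajk, Cda3, AANAT1, stw, straw, tan, Hr46, Cyr, dp, Cg25C and Lpp.

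The alternatives were RLE factors, library sizes without the 20 highest genes, DESeq2 1.42.0, no filter on low counts, filterByExpr, a fit of all 3 groups, adjusted p alone, glmTreat, a replicate block, unique reads, exon reads, limma 3.58.1 on log2(RPKM + 0.1) or log2(RPKM + 1) over genes that reached 0.5 RPKM in 2 libraries, the former also without a filter, and leaving out libraries. Summing near-identical genes was chosen after seeing the data. Tables and figures were made in Python 3.11.15 with pandas 2.3.3, numpy 2.4.6, scipy 1.17.1 and matplotlib 3.10.9.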

Additional observations from a re-analysis of the deposited data

Results flagged for a closer look

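Among 33 sets of 4 libraries, each of which can exceed the 95% limit of Dixon's gap test by chance about 1 time in 20, 2 held a library far from the other 3. *Lcp65Ab1* stood at 6.63 RPKM in adult trachea replicate 3, against 0 to 0.666 in the others, on 41 reads none of which mapped uniquely. The summed RPKM of the *Lcp* genes was 0.204 in whole fly replicate 2, against 2.74 to 3.09 in the others. It rested there on 2 reads.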

How the results depend on the processing

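No log2 fold change of a called member reversed in any of the alternatives run. Of 1548 values of all members tested, 1413 stayed on their side of the threshold, 106 no longer passed it and 29 newly did. The 29 belong to 8 genes, most often *Osi24* (8 alternatives) in larval against adult tracheae, *Lcp9* there (4) and *Osi15* between adult tracheae and whole flies (4). DESeq2 gave no adjusted p for *Lcp9* against whole flies. Against adult tracheae 10 of the 19 calls held wherever the gene was tested, against whole flies 16 of 26, and between adult tracheae and whole flies 1 of 5 (*Osi20*).

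With filterByExpr, which tests fewer genes, 11 instead of 19 members were called higher in larval than adult tracheae, 12 instead of 21 higher and 2 instead of 5 lower in larval tracheae than in whole flies, and 2 instead of 4 lower in adult tracheae than whole flies. DESeq2 and the fit of all 3 groups each called 1 member, *Osi6*, lower in larval than adult tracheae, and the latter called 2 members higher in adult tracheae than whole flies. Without adult trachea replicates 3 and 4, 11 members were higher in larval than adult tracheae and 2 lower in adult tracheae than whole flies.

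With 1 library left out at a time, members called lower in larval than adult tracheae numbered 0 to 1 (1 without adult library 4), lower in larval tracheae than in whole flies 2 to 5, higher in adult tracheae than whole flies 0 to 2 and lower there 1 to 5. With the replicate number as a block, 12 members were higher in larval than adult tracheae, 2 lower in larval tracheae than in whole flies, and 0 higher and 2 lower in adult tracheae than whole flies. Same-numbered libraries did not deviate together (r from -0.055 to -0.004, -0.019 to 0.010 and -0.088 to 0.034 over genes in the 3 comparisons), so the numbers were not taken as pairs.

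With at least 3 reads as the minimum, *Lcp* genes with reads in whole flies numbered 4, and *Ccp84A* genes 1 in adult tracheae and 0 in the whole-fly libraries. With at least 10 reads these numbers were 0, 0 and 0, Tweedle genes numbered 8, 4 and 5 in larval tracheae, adult tracheae and whole flies, and Osiris genes 5 in larval and 3 in adult tracheae. On unique reads 1 *Ccp84A* and 5 Tweedle genes had reads in adult tracheae. On exon reads 8 Osiris genes did. The cause of these changes was not tested beyond the thresholds themselves. Family sums on unique exon reads or as TPM moved by less than the SD between libraries, and median deviations by less than the SD between members. Leaving out 1 of 4 libraries cannot move a mean by that SD, so it says nothing about stability here. The larval *Lcp* sum leans on replicate 2, at 10551 RPKM against 471 to 3232 in the others. A floor of 3 reads limits what can be said of the Osiris and most Tweedle genes in tracheae.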
